A study of Homo sapiens with 28 samples.

Results

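The 10 genes described here encode the ISWI chromatin remodelling ATPases SMARCA5 and SMARCA1 and 8 of the proteins that join them in complexes: BAZ1A, BAZ1B, BAZ2A, BAZ2B, RSF1, BPTF, CECR2 and CHRAC1. The group was chosen by the log2 changes of its genes under the miR-99b-5p mimic, known from earlier results. The genes were taken by symbol from a table of 30887 gene rows, and 9 of the 10 passed the filter on low counts, which kept 15058 genes. CECR2 did not pass. RNA sequencing measured their messenger RNA in Kelly cells, an established human neuroblastoma line. Cells of every group were transfected in suspension with 25 nM of a synthetic microRNA mimic and collected after 48 h. Control cells received a scrambled mimic, and each of the other 6 groups received 1 mimic, of miR-1283, miR-100-3p, miR-380-3p, miR-99b-5p, miR-1915-3p or miR-485-3p. Each group has 4 libraries, 28 in all. Whether the 4 came from separate cultures is not in the labels, so p-values measure only the spread between libraries, which may be technical. All groups are 1 cell line, without an untransfected group, and a synthetic mimic at this dose need not match a level that cells reach by themselves.

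ISWI ATPases slide nucleosomes along DNA and space them evenly. Each ATPase works with a partner that sets where the complex acts. SMARCA5 pairs with BAZ1A in the ACF complex, which becomes CHRAC when the histone-fold proteins CHRAC1 and POLE3 join it. With BAZ1B it forms WICH, with BAZ2A it forms NoRC, which silences ribosomal RNA genes, and with RSF1 it forms the remodelling and spacing factor RSF. SMARCA1 is the ATPase of NURF, whose large subunit is BPTF, and pairs with CECR2 in CERF. A microRNA guides an Argonaute protein to messenger RNAs through its seed, bases 2 to 8 counted from its 5′ end, and a match to the seed in a 3′ UTR often lowers the messenger RNA.

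The mature sequences of the 6 microRNAs are shown because their seeds decide which of these genes carry a site. They are the RefSeq entries (GRCh38.p14), 5′ to 3′, with the seed in capitals. The sequences of the purchased mimics are not given in the labels.
miR-99b-5p: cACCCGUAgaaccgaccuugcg
miR-380-3p: uAUGUAAUaugguccacaucuu
miR-485-3p: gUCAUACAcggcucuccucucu
miR-100-3p: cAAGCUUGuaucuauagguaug
miR-1915-3p: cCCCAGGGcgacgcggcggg
miR-1283: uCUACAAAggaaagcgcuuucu
The 6 seeds all differ. The seed of miR-99b-5p is shared by miR-100-5p and miR-99a-5p, while miR-100-3p, from the opposite arm of the miR-100 hairpin, has another seed.

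A site was counted where the longest 3′ UTR of a gene (GENCODE v29, GRCh38) held the heptamer complementary to the seed, on the sense strand. The heptamers were TACGGGT (miR-99b-5p), TTTGTAG (miR-1283), ATTACAT (miR-380-3p), CCCTGGG (miR-1915-3p), TGTATGA (miR-485-3p) and CAAGCTT (miR-100-3p). Of 16116 3′ UTRs searched, 1.13% held the miR-99b-5p heptamer, by far the rarest of the 6. The heptamers of the others were held by 22.4% (miR-1915-3p), 18.7% (miR-1283), 13.9% (miR-380-3p), 12.9% (miR-485-3p) and 9.69% (miR-100-3p). These letters are a description of the sequence, and a match is not a proven site.

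Only SMARCA5 and BAZ2A among the 10 genes held the miR-99b-5p heptamer. The set was put together knowing that these 2 were low under that mimic, so their number cannot be weighed against the 1.13%. Their 3′ UTRs, of 4302 and 3022 bases, are also longer than the median of 1264 bases over all genes. Their 3 matches, the 2 matches in RSF1 with an A after the heptamer, and the miR-485-3p match in BAZ2A are shown, since the values of these genes under those mimics are given below. Capitals mark the heptamer, and the sequence is that of the messenger RNA strand with T for U.
SMARCA5, miR-99b-5p: tctttaattTACGGGTcttcataag
BAZ2A, miR-99b-5p, nearer the stop codon: actatcgtgTACGGGTtcctccctc
BAZ2A, miR-99b-5p, farther from it: ttcagagatTACGGGTacttgcact
BAZ2A, miR-485-3p: gctatccccTGTATGAtgttggatg
RSF1, miR-485-3p: taacttcagTGTATGAacacctagt
RSF1, miR-1915-3p: atactttagCCCTGGGatttgggtt
The SMARCA5 heptamer lies at chr4:143553235-143553241 on the plus strand and starts at base 51 of a 3′ UTR of 4302 bases. The BAZ2A heptamers for miR-99b-5p lie on the minus strand at chr12:56597997-56598003 and chr12:56597042-56597048, from bases 615 and 1570 of a 3′ UTR of 3022 bases. The second is followed by an A, the form called an 8mer. Its miR-485-3p heptamer lies between them, at chr12:56597885-56597891. In RSF1, both heptamers shown are followed by an A, at chr11:77660294-77660300 and chr11:77665360-77665366 on the minus strand.

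**Figure D1:**
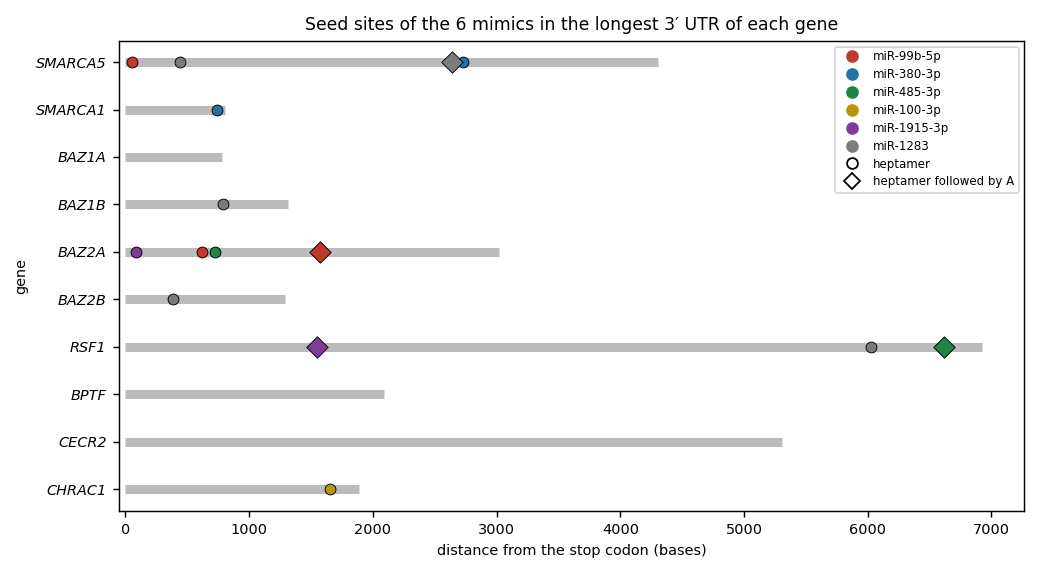
Grey bars give the longest 3′ UTR of each of the 10 genes, in bases from the stop codon on the horizontal axis. Coloured marks give the heptamers of each mimic, with diamonds where an A follows. SMARCA5 and BAZ2A carry 4 marks each, RSF1 carries 3, and BAZ1A, BPTF and CECR2 carry none.

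Across the 10 genes, 15 heptamers were found for the 6 mimics. SMARCA1 carried 1 for miR-380-3p, BAZ1B and BAZ2B 1 each for miR-1283, and CHRAC1 1 for miR-100-3p. SMARCA5 carried 2 for miR-1283 and 1 for miR-380-3p beside its miR-99b-5p heptamer. BAZ2A carried 1 for miR-1915-3p, and RSF1 1 for miR-1283. BAZ2A was the 1 gene with at least 2 miR-99b-5p heptamers among the 158 tested genes that had any.

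The expected counts of a library summed to between 10.99 M and 23.3 M (median 15.0 M). They were scaled to library size as CPM, with TMM factors from 0.948 to 1.03. Log2 changes carry their standard error, from edgeR's quasi-likelihood fit of all 28 libraries, and a gene was called at a Benjamini-Hochberg adjusted p under 0.05 over all genes tested. All 11 markers of adrenergic neuroblastoma examined were present, MYCN at 3230 to 6930 CPM. Of 12 markers of other cell types, 9 were among the 30887 gene rows, and no row had the symbol PTPRC, CD3E or KRT5. The endothelial PECAM1 and CDH5, the hepatic ALB and the melanocyte and glial MLANA and SOX10 were at or under 0.187 CPM in every library, with COL1A1 the most abundant at 3.39 to 13.2 CPM. Libraries also differed in how the level of a gene depended on its GC content. That GC slope, in log2 units per unit of GC fraction, ran from -2.16 (miR-99b-5p replicate 2) to 3.04 (miR-485-3p replicate 2), the libraries that stood farthest apart.

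In control cells the order of the genes by CPM per kilobase of the length given in the table was BAZ1B, BPTF, BAZ1A, BAZ2A, SMARCA5, SMARCA1, CHRAC1, RSF1, BAZ2B and CECR2. BAZ1B stood at 71.4 CPM per kb, BPTF at 59.7, BAZ1A at 43.4, BAZ2A at 36.5 and SMARCA5 at 30.1. SMARCA1 (21.7), CHRAC1 (20.8) and RSF1 (20.1) were neighbours whose control libraries overlapped. BAZ2B was lower, at 5.05 CPM per kb, and CECR2 lowest, at 0.027. The 2 ATPases together made 51.8 ± 2.97 CPM per kb (SD, n = 4), of which SMARCA5 gave 58.1%. The partners BAZ1B, BPTF, BAZ1A and BAZ2A thus had more messenger RNA per length than either ATPase in these cells. How the length in the table was derived is not given in the sources used here.

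**Figure D2:**
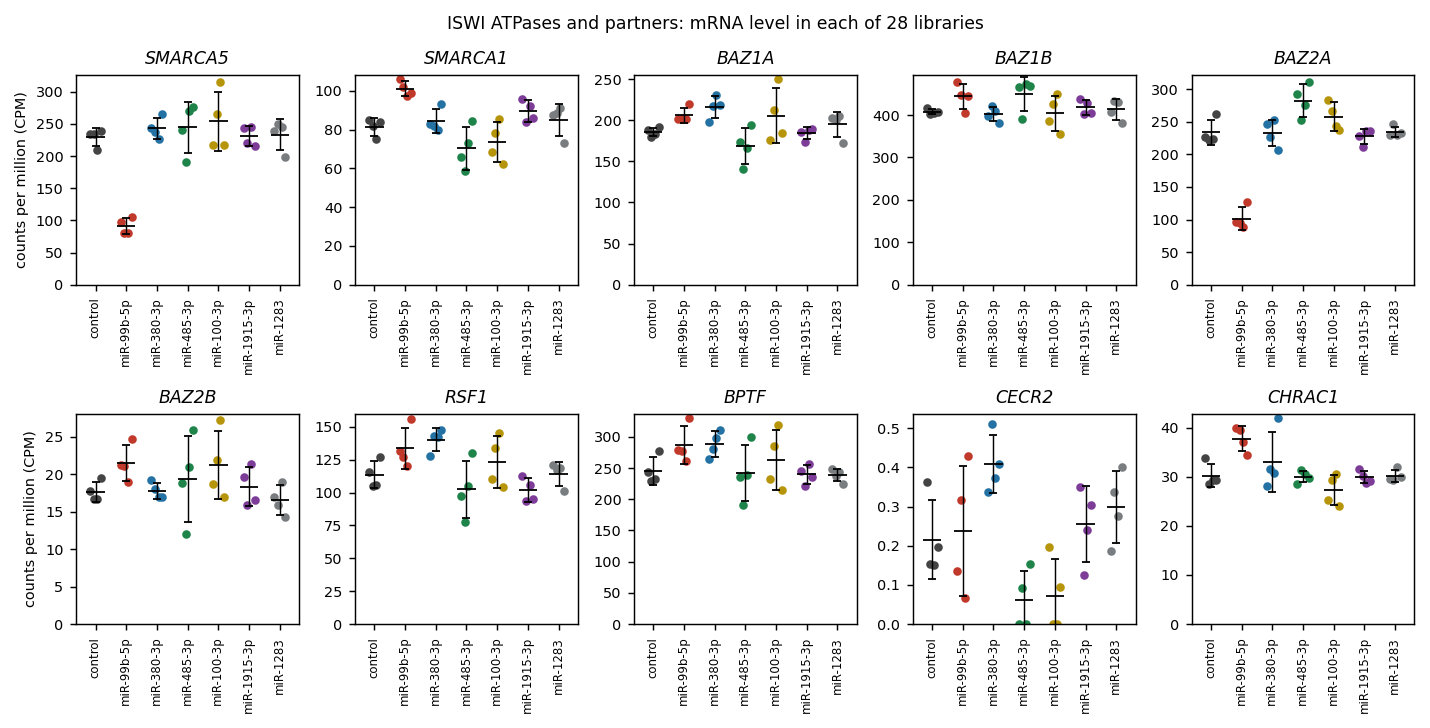
Each panel shows the CPM of 1 gene in each of the 28 libraries (points, by group), with the mean (bar) and SD (whiskers) of 4 libraries. SMARCA5 and BAZ2A under miR-99b-5p sit at 80.2 to 105 and 88.1 to 127 CPM, below every other library of the same gene.

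Under the miR-99b-5p mimic, SMARCA5 and BAZ2A were both at less than 45% of their control level, while the other 7 tested genes had means above control. The set was put together knowing that SMARCA5 and BAZ2A were low under this mimic, so the values of that comparison are given as a description, with no test. By the same rule as elsewhere 4 of 9 were called, beside 16.6% of all genes tested. SMARCA5 and BAZ2A were the 2 lower, beside 8.48% of all genes, and SMARCA1 and CHRAC1 the 2 higher, beside 8.11%. Nothing is read from that count. In bulk RNA, fewer cells of a kind and less RNA per cell cannot be told apart.

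SMARCA5 (ENSG00000153147, chr4:143513463-143557486), the ATPase shared by ACF, WICH, NoRC and RSF, stood at 235, 235, 209 and 239 CPM in the control libraries. Under miR-99b-5p it stood at 97.3, 80.2, 80.3 and 105 CPM. The groups were far apart, with the highest miR-99b-5p library at about the middle between 0 and the lowest control. The means were 230 ± 13.8 and 90.7 ± 12.5 CPM (n = 4 each), a log2 change of -1.34 ± 0.12, or 39.5% of control. Of the 15058 tested genes, 110 had a lower log2 change in this comparison. Among the other 5 groups SMARCA5 ranged from 191 CPM (miR-485-3p) to 315 CPM (miR-100-3p) in single libraries, and it was called under none of these mimics, whether or not its 3′ UTR held their heptamer. With 2 miR-1283 heptamers, 1 followed by an A, it was at 233 ± 23.6 CPM under miR-1283 (0.02 ± 0.12, 95% interval -0.21 to 0.26). With 1 miR-380-3p heptamer it was at 243 ± 15.9 CPM under miR-380-3p (0.08 ± 0.12, interval -0.15 to 0.32). Under miR-1283 only 0.0199% of all genes tested were called. Of 649 genes with at least 2 miR-1283 heptamers, 0 were called lower, with a median log2 change of 0.014.

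SMARCA1 (ENSG00000102038, chrX:129446501-129523500), the paralogous ATPase of NURF and CERF, stood at 85.1, 81.7, 75.0 and 84.0 CPM in the control libraries. Under miR-99b-5p it stood at 106, 102, 97.1 and 98.9 CPM. All 4 of these lay above all 4 controls. The means were 81.5 ± 4.51 and 101 ± 3.96 CPM, a log2 change of 0.31 ± 0.10. The miR-99b-5p mean was 124% of control, against 39.5% for SMARCA5. The sum of the 2 ATPases was 38.8 ± 2.12 CPM per kb under miR-99b-5p against 51.8 ± 2.97 in control cells. SMARCA5 made 30.5% of that sum, so that SMARCA1 was the more abundant ATPase messenger RNA under this mimic alone of the 7 groups. The control libraries gave a SMARCA5 to SMARCA1 ratio per kilobase of 1.36 to 1.42 and the miR-99b-5p libraries one of 0.386 to 0.523. With miR-99b-5p replicate 2 or 3 or control replicate 2 or 4 left out SMARCA1 was not called, at log2 changes of 0.29, 0.31, 0.31 and 0.27.

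**Figure D3:**
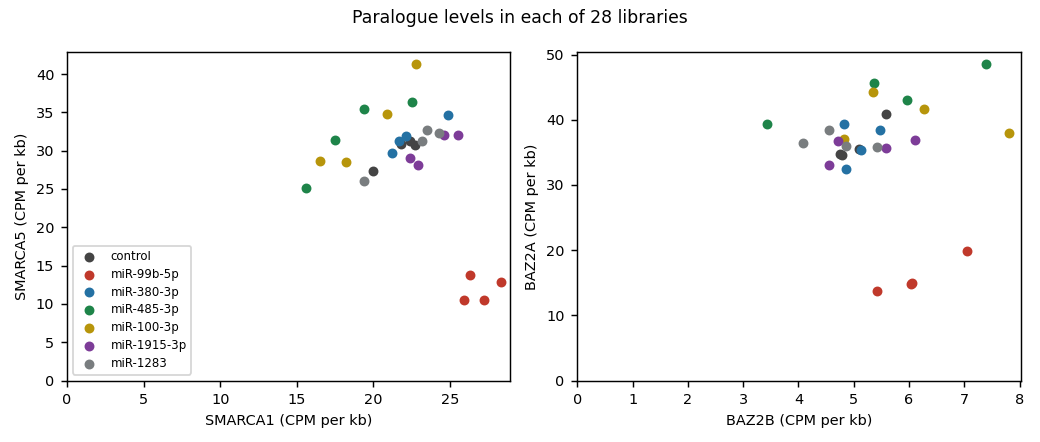
Each point is 1 library, with SMARCA5 against SMARCA1 (left) and BAZ2A against BAZ2B (right), in CPM per kb of the length in the table. The 4 miR-99b-5p libraries lie apart in both panels, at mean ratios of 0.439 and 2.56 against 1.39 and 7.22 in the control libraries.

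BAZ2A (ENSG00000076108, chr12:56595596-56636816), the NoRC subunit that recruits silencing enzymes to ribosomal RNA genes, stood at 227, 222, 223 and 262 CPM in the control libraries. Under miR-99b-5p it stood at 95.9, 94.5, 88.1 and 127 CPM. No library overlapped with the controls. The means were 233 ± 19.2 and 101 ± 17.4 CPM, a log2 change of -1.20 ± 0.09, or 43.5% of control, and 162 tested genes had a lower change. The gene with 2 heptamers thus changed by about as much as SMARCA5 with 1. BAZ2B (ENSG00000123636, chr2:159318979-159616692), its closest relative in sequence family, has no miR-99b-5p heptamer. It stood at 17.8, 16.7, 16.7 and 19.5 CPM in the control libraries and at 21.2, 21.1, 19.0 and 24.7 CPM under miR-99b-5p, groups that overlapped (0.28 ± 0.16). The BAZ2A to BAZ2B ratio per kilobase was 6.98 to 7.34 in the control libraries and 2.45 to 2.82 under miR-99b-5p.

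The ACF, CHRAC and WICH partners were at or above their control levels under miR-99b-5p. BAZ1A (ENSG00000198604, chr14:34752731-34875647), the large subunit of ACF, stood at 188, 180, 183 and 192 CPM in the control libraries. Under miR-99b-5p it stood at 201, 202, 201 and 220 CPM, all above the controls, with a log2 change of 0.15 ± 0.09. BAZ1B (ENSG00000009954, chr7:73440398-73522278), the large subunit of WICH, went from a mean of 408 ± 5.58 to 444 ± 29.8 CPM (0.12 ± 0.07), with overlapping libraries. CHRAC1 (ENSG00000104472), the small histone-fold subunit, stood at 33.7, 28.5, 29.4 and 29.3 CPM in the control libraries and at 39.9, 39.5, 37.0 and 34.5 CPM under miR-99b-5p. All 4 mimic libraries were above all 4 controls (0.32 ± 0.09). With miR-99b-5p replicate 2 or 3 or control replicate 2, 4 or 5 left out CHRAC1 was not called, at log2 changes of 0.29, 0.30, 0.29, 0.31 and 0.31. Of all genes tested, 11.5% had all 4 miR-99b-5p libraries below all 4 controls and 12.4% had all 4 above, beside SMARCA5 and BAZ2A below and SMARCA1, BAZ1A and CHRAC1 above.

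RSF1 (ENSG00000048649, chr11:77659996-77821017), the histone-binding partner of SMARCA5 in RSF, and BPTF (ENSG00000171634, chr17:67825524-67984378), the reader of methylated histone H3 in NURF, overlapped with their controls under miR-99b-5p. RSF1 had means of 114 ± 10.2 and 134 ± 15.8 CPM (0.23 ± 0.12). BPTF had means of 245 ± 22.1 and 287 ± 29.7 CPM (0.23 ± 0.11). CECR2 (ENSG00000099954, chr22:17359949-17558149), the SMARCA1 partner in CERF, had 0 to 8 counts in a library and 0.221 CPM on average over all 28, too few to compare. Its summed counts per group ran from 3 (miR-485-3p) to 24 (miR-380-3p), with 12 in the control libraries.

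The GC slope moved with several of these values. Over 28 libraries, the Pearson correlation of log2 CPM with the GC slope was -0.673 for SMARCA1, -0.664 for BAZ2B, -0.63 for RSF1, -0.611 for BPTF, -0.606 for BAZ1A and -0.535 for BAZ1B. It was 0.0219 for SMARCA5 and 0.236 for BAZ2A. The mean slope was 0.48 ± 0.665 in the control libraries and -0.748 ± 1.01 under miR-99b-5p. With the slope as a term of the fit, the log2 change under miR-99b-5p was 0.191 for SMARCA1, against 0.31 without it. It was 0.268 for CHRAC1, -1.46 for SMARCA5 and -1.21 for BAZ2A. The summed markers of other cell types were also lower under miR-99b-5p, at 4.93 to 6.02 CPM against 7.7 to 11.4 in the control libraries. So were the summed adrenergic markers, at 9280 to 11400 against 12500 to 13500 CPM. The adrenergic sum was below all controls under miR-380-3p (9430 to 11700 CPM) and miR-485-3p (8160 to 11400 CPM) as well, and overlapped with control in the remaining groups. The part of either sum in the values was not tested.

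**Figure D4:**
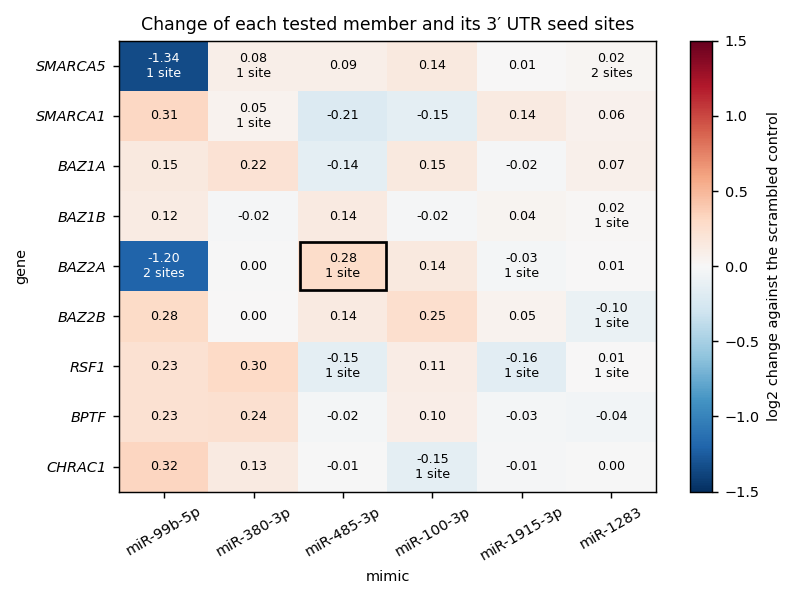
Each cell gives the log2 change of 1 tested gene (rows) under 1 mimic (columns) against the scrambled control, with the number of heptamers of that mimic in its 3′ UTR. The frame marks BAZ2A under miR-485-3p, the 1 gene called by the test under the 5 mimics other than miR-99b-5p.

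Under the other 5 mimics 1 of the 9 tested genes was called, once. These comparisons use the same 4 control libraries as the miR-99b-5p comparison that entered the choice of the genes. They are therefore not independent of that choice. Under miR-485-3p, BAZ2A rose. Its control libraries stood at 227, 222, 223 and 262 CPM and its miR-485-3p libraries at 292, 252, 275 and 311 CPM. The groups overlapped, since control replicate 5 lay above the lowest miR-485-3p library. The means were 233 ± 19.2 and 282 ± 25.2 CPM (log2 change 0.28 ± 0.09, edgeR adjusted p = 0.0321). BAZ2A thus rose under a mimic whose heptamer its 3′ UTR holds. The 1 of 9 called compares with 21.1% of all genes in either direction and 10.5% called higher. BAZ2A was no longer called when control replicate 1, 2 or 4 or miR-485-3p replicate 1, 3 or 5 was left out, with edgeR adjusted p-values from 0.0698 to 0.121, and with no filter on low counts (0.0703) or with the 8 libraries of the comparison alone (0.0572).

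The other 8 genes tested under miR-485-3p had log2 changes from -0.21 to 0.14, with 95% intervals reaching from -0.41 to 0.47. SMARCA1 stood at 65.9, 58.5, 73.0 and 84.5 CPM, with 3 libraries below all controls (-0.21 ± 0.10, edgeR adjusted p = 0.14). A fit with the GC slope as a term called it lower (-0.206, edgeR adjusted p = 0.00347), as did the fit without miR-485-3p replicate 5 (-0.321, edgeR adjusted p = 0.0269). BAZ1B stood at 466, 390, 473 and 468 CPM (0.14 ± 0.07, edgeR adjusted p = 0.172), with replicate 2, the library of highest GC slope, apart from the rest. It was called higher with the GC slope as a term (0.142, edgeR adjusted p = 0.0383) and without that replicate (0.202, edgeR adjusted p = 0.0345). RSF1, with an 8mer for miR-485-3p, stood at 97.4, 77.6, 105 and 130 CPM, values that overlapped with control (-0.15 ± 0.12, edgeR adjusted p = 0.424).

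Under miR-380-3p, 0 of 9 genes were called with edgeR, beside 10.9% of all genes tested. Unadjusted p was under 0.05 for 3 of them, and DESeq2 and limma-voom also called 0. RSF1 stood at 128, 143, 142 and 148 CPM, above its control libraries at 116, 105, 106 and 127 CPM (0.30 ± 0.12, edgeR adjusted p = 0.112). BAZ1A stood at 198, 217, 230 and 219 CPM, also all above control (0.22 ± 0.09, edgeR adjusted p = 0.128). BPTF stood at 264, 281, 299 and 311 CPM, with 1 control library at 277 CPM between them (0.24 ± 0.11, edgeR adjusted p = 0.197). Of all genes tested, 9.56% had all 4 miR-380-3p libraries above all 4 controls, beside 2 of the 9 genes here. A fit of only the 8 libraries concerned called BAZ1A (edgeR adjusted p = 0.0426) and RSF1 (edgeR adjusted p = 0.0242) higher. The 2 genes with a miR-380-3p heptamer, SMARCA5 and SMARCA1, were at 0.08 ± 0.12 and 0.05 ± 0.10.

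Under miR-1283, miR-100-3p and miR-1915-3p, edgeR, DESeq2 and limma-voom each called 0 of 9 genes, and 0 had an unadjusted edgeR p under 0.05. With the GC slope as a term, SMARCA1 was called lower under miR-100-3p (-0.236, edgeR adjusted p = 0.00362). The share of all genes called was 5.96% under miR-100-3p, 0.246% under miR-1915-3p and 0.0199% under miR-1283. Log2 changes ran from -0.15 to 0.25 under miR-100-3p, with 95% intervals between -0.35 and 0.58. They ran from -0.16 to 0.14 under miR-1915-3p, with intervals between -0.41 and 0.38, and from -0.10 to 0.07 under miR-1283, with intervals between -0.43 and 0.26. CHRAC1, with the miR-100-3p heptamer, stood at 25.2, 29.4, 30.5 and 24.1 CPM under that mimic (-0.15 ± 0.10). RSF1, with an 8mer for miR-1915-3p, stood at 113, 93.8, 106 and 95.0 CPM under that mimic (-0.16 ± 0.12). Both sets overlapped with control.

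Across the 5 mimics other than miR-99b-5p there were 11 pairs of a tested gene and a mimic whose heptamer it held. None of the 11 was called lower by edgeR, and BAZ2A under miR-485-3p was called higher. Their median log2 change was 0.0086, beside 0.0418 over the 34 pairs without a heptamer. Among the 11 are BAZ2A and RSF1 under miR-1915-3p, and SMARCA5, BAZ1B, BAZ2B and RSF1 under miR-1283. These 2 mimics called 0.246% and 0.0199% of all genes. Of genes with 1 of their heptamers, 0.514% and 0.0512% were called lower. The lack of calls in those pairs therefore says little about the heptamers. Over all genes, 25.2% of those with 1 miR-485-3p heptamer and 12.4% of those with 1 miR-380-3p heptamer were called lower under those mimics, against 8.21% and 4.13% of those without. For miR-99b-5p the shares were 40.1% of 157 genes with 1 heptamer and 8.87% of 12377 without. So most genes with a heptamer, here as over all genes, were not called lower.

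The control libraries are shared by all 6 comparisons, so the mimics were also compared with each other, without the control. Over the 15 pairs of mimics, 29 of 135 tests on the 9 genes were called by edgeR. Of these, 19 of 45 were in pairs with miR-99b-5p, beside 23.1% of all genes and pairs, and they rest on the libraries that entered the choice. In those 5 pairs SMARCA5 was lower by -1.49 to -1.35 on the log2 scale and BAZ2A by -1.48 to -1.17. CHRAC1 was higher in 4 of the 5 pairs, SMARCA1 and RSF1 in 2 each and BAZ1A in 1. Leaving out 1 library ended the BAZ1A call, both RSF1 calls and the CHRAC1 call against miR-1283.

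The 10 pairs without miR-99b-5p held 10 calls in 90 tests, beside 16.1% of all genes and pairs, and 4 of the 10 were between miR-380-3p and miR-485-3p, where 29% of all genes were called. BAZ1A was higher under miR-380-3p than under miR-485-3p, where it stood at 173, 141, 166 and 194 CPM (0.36 ± 0.09, edgeR adjusted p = 0.00351). RSF1 was higher as well (0.45 ± 0.12, edgeR adjusted p = 0.00557), as was SMARCA1 (0.26 ± 0.10, edgeR adjusted p = 0.0466). BAZ2A was lower under miR-380-3p than under miR-485-3p (-0.28 ± 0.09, edgeR adjusted p = 0.023). Partners of SMARCA5 thus lay on opposite sides of this pair, with BAZ1A and RSF1 higher on the side where BAZ2A was lower. Their correlations with the GC slope also differed in sign, at -0.606 (BAZ1A), -0.63 (RSF1) and 0.236 (BAZ2A). The mean slope was -0.124 ± 1.16 under miR-380-3p and 0.62 ± 1.87 under miR-485-3p, and its part in these calls was not tested. The BAZ1A and RSF1 calls were kept whichever of the 8 libraries was left out. BAZ2A was not called once miR-380-3p replicate 4 or miR-485-3p replicate 1 or 5 was left out (edgeR adjusted p = 0.0969, 0.0579 and 0.095). SMARCA1 was not called once any of the 8 other than miR-485-3p replicate 5 was left out (edgeR adjusted p from 0.0521 to 0.179).

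The other 6 calls concerned the same genes and CHRAC1. BAZ2A was higher under miR-485-3p than under miR-1915-3p (0.31 ± 0.09, edgeR adjusted p = 0.0143), a pair with 23.1% of all genes called, and than under miR-1283 (0.27 ± 0.09, edgeR adjusted p = 0.038), a pair with 19.5%. The first call was lost without miR-1915-3p replicate 2 or miR-485-3p replicate 5 (edgeR adjusted p = 0.0519 and 0.0634), and the second without replicate 1, 3 or 4 of miR-1283 or 1, 3 or 5 of miR-485-3p (edgeR adjusted p from 0.086 to 0.17). SMARCA1 was lower under miR-485-3p than under miR-1915-3p (-0.34 ± 0.10, edgeR adjusted p = 0.0113), at 0.0511 without miR-485-3p replicate 2. BAZ1A was lower under miR-485-3p than under miR-100-3p (-0.29 ± 0.09, edgeR adjusted p = 0.0181), a pair with 28.5% of all genes called. That call was lost without miR-100-3p replicate 3 (-0.179, edgeR adjusted p = 0.126) or miR-485-3p replicate 2 (edgeR adjusted p = 0.0841). RSF1 was higher under miR-380-3p than under miR-1915-3p (0.46 ± 0.12, edgeR adjusted p = 0.00908), a pair with 14.5% called, and that call was kept whichever library was left out. CHRAC1 was higher under miR-380-3p than under miR-100-3p (0.28 ± 0.10, edgeR adjusted p = 0.0403), a pair with 17.4% called. In it miR-380-3p replicate 4 stood at 41.9 CPM and the other 3 libraries at 28.0 to 31.5 CPM, and the call was lost without that library (0.147, edgeR adjusted p = 0.265) and without miR-100-3p replicate 1 or 4 (edgeR adjusted p = 0.114 and 0.144). BAZ1B, BAZ2B, BPTF and SMARCA5 were called in no pair without miR-99b-5p.

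Ratios between relatives cancel only what a library does alike to both genes. Over 28 libraries, the correlation with the GC slope was 0.0219 for SMARCA5 against -0.673 for SMARCA1. It was 0.236 for BAZ2A against -0.664 for BAZ2B, and -0.606 for BAZ1A against -0.535 for BAZ1B. The part of the GC slope in the ratios was not tested. The SMARCA5 to SMARCA1 ratio per kilobase was 1.61 to 1.82 under miR-485-3p and 1.57 to 1.81 under miR-100-3p, both above the control range of 1.36 to 1.42, and 1.23 to 1.31 under miR-1915-3p, below it. The BAZ1A to BAZ1B ratio was 0.664 to 0.766 under miR-380-3p and 0.468 to 0.551 under miR-485-3p, on either side of the control range of 0.597 to 0.626. These 5 ratios each gave the smallest two-sided p that an exact permutation test of 4 against 4 libraries allows (0.0286). Adjusted over the 15 ratio tests of the 5 mimics, the p was 0.0858, so none passed 0.05. The BAZ2A to BAZ2B ratio overlapped with its control range under all 5, with exact permutation p-values from 0.314 to 0.971.

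The order of levels was mostly kept between groups. BAZ1B was first and CECR2 last in each of the 7 groups, and BAZ2B stood just before CECR2. SMARCA5 had rank 5 in the control group and in the 5 groups other than miR-99b-5p. Under miR-99b-5p it had rank 8 (11.9 CPM per kb), just below BAZ2A (15.8). There the highest SMARCA5 library and the lowest BAZ2A library met, both at 13.8 CPM per kb when rounded. BPTF, at 70.3 CPM per kb, was level with BAZ1B (70.5) under miR-380-3p, where the libraries of the 2 genes overlapped, as they also did under miR-100-3p, miR-485-3p and miR-99b-5p. Under miR-485-3p BAZ2A (44.1 CPM per kb) came before BAZ1A (39.4), again with overlapping libraries.

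**Figure D5:**
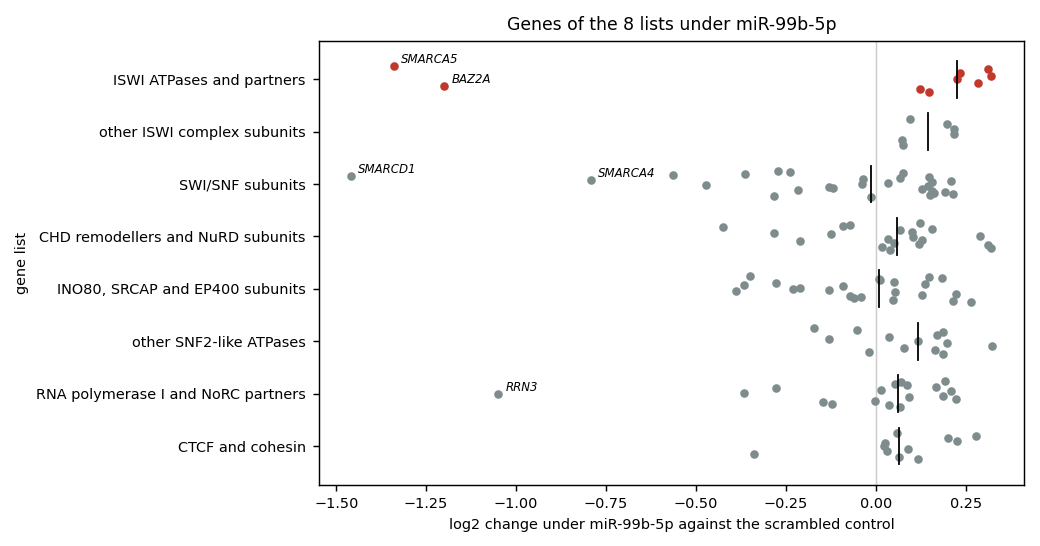
Each point is 1 tested gene, placed by its log2 change under miR-99b-5p against the scrambled control, in 8 lists of genes of remodelling complexes, of RNA polymerase I with NoRC and of CTCF with cohesin, with the median of each list as a vertical bar. SMARCD1, SMARCA5, BAZ2A and RRN3 lie at -1.05 or below, and the other points lie above -0.80.

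The other subunits of ISWI complexes did not follow SMARCA5 down. They and the genes of the lists below were chosen with earlier results of these data known, so their p-values are a description. Of 6 tested, 0 were called lower under any mimic. Under miR-99b-5p 1 of the 6 was called, beside 16.6% of all genes. RBBP4, the histone chaperone of NURF, rose from 380 ± 21.9 to 435 ± 17.3 CPM (0.20 ± 0.06, edgeR adjusted p = 0.0257). POLE3, the histone-fold partner of CHRAC1, stood at 0.217 and the other 4 at 0.0728 to 0.217, none called. Under miR-380-3p, where 10.9% of all genes were called, 3 of the 6 rose, namely POLE3 (log2 change 0.298), RBBP4 (0.22 ± 0.06, edgeR adjusted p = 0.0199) and the NURF subunit HMGXB4 (0.25 ± 0.07, edgeR adjusted p = 0.0114). RBBP4, which rose, holds 1 miR-380-3p heptamer. Under miR-485-3p, where 21.1% of all genes were called, 3 of the 6 rose as well. POLE3 rose from 69.3 ± 5.06 to 92.3 ± 8.53 CPM (0.42 ± 0.10, edgeR adjusted p = 0.00238), and HMGXB4 (0.22 ± 0.07, edgeR adjusted p = 0.0146) and RBBP7 (log2 change 0.174) also rose. The median of the 6 was 0.146 under miR-99b-5p, 0.229 under miR-380-3p and 0.117 under miR-485-3p, beside medians of all genes of -0.00257, -0.00282 and 0.0246. Of these calls, leaving out single libraries kept that of POLE3 under miR-485-3p throughout. RBBP4 lost its call under miR-99b-5p without replicate 2, 3 or 4 of that mimic or control replicate 5 (edgeR adjusted p from 0.0577 to 0.108). Under miR-380-3p it did so without replicate 1, 3 or 4 of the mimic or control replicate 5 (edgeR adjusted p from 0.0543 to 0.094), POLE3 without mimic replicate 1, 2 or 3 or control replicate 1, 2 or 5 (0.0758 to 0.156) and HMGXB4 without mimic replicate 3 (0.0605). Under miR-485-3p, HMGXB4 lost it without mimic replicate 3 (edgeR adjusted p = 0.141) and RBBP7 without mimic replicate 1 or 3 or control replicate 2 or 5 (0.062 to 0.189).

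In the other remodelling families, whose p-values are likewise a description, the gene of lowest log2 change under miR-99b-5p was SMARCD1, an accessory subunit of SWI/SNF. It fell from 180 ± 9.39 to 65.4 ± 4.52 CPM (-1.46 ± 0.06, edgeR adjusted p = 1.01e-14). The SWI/SNF ATPase SMARCA4 fell from 663 ± 28.8 to 383 ± 37.9 CPM (-0.79 ± 0.08, edgeR adjusted p = 1.27e-07). Neither has a miR-99b-5p heptamer in its 3′ UTR. Of 27 tested SWI/SNF genes, 5 fell and 1 rose, with a median of -0.0145, beside 8.48% of all genes called lower and 8.11% called higher. The numbers for the next 3 families stand beside the same shares, and nothing particular to a family is read from them. Of 20 CHD and NuRD genes, 1 fell and 2 rose, namely GATAD2B, a NuRD subunit with 1 heptamer (-0.28 ± 0.06, edgeR adjusted p = 0.00137), and the ATPases CHD2 (0.31 ± 0.09, edgeR adjusted p = 0.0172) and CHD1 (log2 change 0.321). Of 23 genes of the INO80, SRCAP and EP400 complexes, 3 fell and 1 rose, among them the INO80 subunits INO80E (-0.39 ± 0.12, edgeR adjusted p = 0.0205) and NFRKB (-0.21 ± 0.06, edgeR adjusted p = 0.0151). Of 13 other SNF2-like ATPases, only HELLS, a remodeller linked to DNA methylation, was called (0.32 ± 0.09, edgeR adjusted p = 0.00904). The calls of SMARCD1, SMARCA4, GATAD2B and HELLS were kept whichever of the 8 libraries was left out. CHD2 lost its call without miR-99b-5p replicate 7 or control replicate 4 (edgeR adjusted p = 0.0576 and 0.0548), NFRKB without miR-99b-5p replicate 2 (0.0685), INO80E without that library or control replicate 4 or 5 (0.0527 to 0.0903), and CHD1 without miR-99b-5p replicate 2, 4 or 7 or control replicate 1, 2 or 4 (0.0646 to 0.0939).

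Genes that work with NoRC at ribosomal RNA genes were looked at for the sake of BAZ2A, and their p-values too are a description. Of 18 genes of RNA polymerase I and the NoRC pathway, 2 fell and 0 rose under miR-99b-5p, where 8.48% of all genes were called lower and 8.11% higher. RRN3, the initiation factor that brings RNA polymerase I to its promoter, fell from 77.5 ± 4.59 to 37.3 ± 2.10 CPM (-1.05 ± 0.09, edgeR adjusted p = 5.01e-09) and holds 1 miR-99b-5p heptamer. SIRT7, a deacetylase of the nucleolus, fell from 25.4 ± 2.87 to 19.7 ± 0.916 CPM (-0.37 ± 0.12, edgeR adjusted p = 0.0321), a call lost without miR-99b-5p replicate 2, 4 or 7 or control replicate 4 or 5 (edgeR adjusted p from 0.0556 to 0.128). The median of the 18 was 0.0609. Under miR-485-3p, where BAZ2A rose and 21.1% of all genes were called, 2 of the 18 fell and 1 rose. The 2 that fell were PARP1, an ADP-ribosylating enzyme (-0.29 ± 0.05, edgeR adjusted p = 0.000312), and TAF1B, a subunit of the promoter factor of RNA polymerase I (-0.49 ± 0.10, edgeR adjusted p = 0.00103). PARP1 was also the 1 gene of this list called under miR-100-3p (-0.36 ± 0.06, edgeR adjusted p = 0.000136). It holds 1 heptamer of that mimic.

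Of 11 genes of CTCF and cohesin, whose loading on chromatin SMARCA5 is known to aid, 0 were called under miR-99b-5p, with a median of 0.0657. The same list had 1 lower and 2 higher under miR-485-3p, with SMC1A at -0.39 ± 0.08 (edgeR adjusted p = 0.000983) and PDS5B at 0.36 ± 0.11 (edgeR adjusted p = 0.0161), which was not called without miR-485-3p replicate 3 or 5 or control replicate 4 (edgeR adjusted p from 0.0557 to 0.126). Under miR-100-3p the cohesin subunit STAG2 fell (-0.65 ± 0.13, edgeR adjusted p = 0.00175) and CTCF rose (0.28 ± 0.08, edgeR adjusted p = 0.0415), a call lost without any 1 of the 4 control libraries or without miR-100-3p replicate 2 or 3 (edgeR adjusted p from 0.0703 to 0.251). Without that replicate 3 the CTCF change was 0.174. CTCF, which rose, holds 1 miR-100-3p heptamer, and SMC1A, which fell, holds 2 miR-485-3p heptamers. Over the 7 lists of 118 tested genes, 17 were called under miR-99b-5p, 10 under miR-380-3p, 26 under miR-485-3p, 5 under miR-100-3p and 0 under miR-1915-3p and miR-1283. As shares of the 118 these were 14.4%, 8.47%, 22% and 4.24%, near the 16.6%, 10.9%, 21.1% and 5.96% of all genes called. With edgeR's filter on low counts left out, the number under miR-99b-5p was 10. Under that mimic it was 8 without control replicate 4 and 11 without replicate 2 or 3 of the mimic. For miR-380-3p it was 3 without replicate 3 of the mimic, 5 without its replicate 4 or control replicate 2 or 5, and 6 without its replicate 1. Under miR-485-3p it was 16 without replicate 3, and under miR-100-3p 3 without control replicate 1, 2 or 5.

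Under miR-485-3p the remodelling genes with the smallest p-values lay outside the ISWI group. ARID1A, the DNA-binding subunit of SWI/SNF, holds 1 miR-485-3p heptamer and fell from 216 ± 12.4 to 119 ± 10.1 CPM (-0.86 ± 0.06, edgeR adjusted p = 1.49e-10), while SMARCD2 rose from 125 ± 5.05 to 196 ± 19.1 CPM (0.65 ± 0.07, edgeR adjusted p = 4.96e-08). The ATPase CHD7 fell (-0.58 ± 0.10, edgeR adjusted p = 9.04e-05), as did GATAD2B with 2 heptamers (-0.31 ± 0.06, edgeR adjusted p = 0.000512). UCHL5 of INO80 fell (-0.60 ± 0.10, edgeR adjusted p = 8.99e-05) and INO80 rose (0.24 ± 0.07, edgeR adjusted p = 0.0181). RAD54L fell (-0.49 ± 0.10, edgeR adjusted p = 0.000421) and HELLS rose (0.28 ± 0.09, edgeR adjusted p = 0.0202). INO80 lost its call without miR-485-3p replicate 3 or 5 or control replicate 1 or 2 (edgeR adjusted p from 0.054 to 0.0802) and HELLS without miR-485-3p replicate 3 or 5 or control replicate 5 (0.0642 to 0.217). Without replicate 3 the HELLS change was 0.175. The other 6 named kept theirs.

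Under miR-380-3p the named changes were smaller. SMARCD3, a muscle and neural subunit of SWI/SNF, fell (-0.40 ± 0.11, edgeR adjusted p = 0.0179) and SMARCD2 rose (0.24 ± 0.07, edgeR adjusted p = 0.0193). CHD3 (0.27 ± 0.06, edgeR adjusted p = 0.0042) and CDK2AP1 (0.22 ± 0.06, edgeR adjusted p = 0.0214), both of NuRD, rose. YY1 of INO80 fell (-0.25 ± 0.06, edgeR adjusted p = 0.00835). Under miR-100-3p ACTL6A, an actin-like subunit with 1 heptamer of that mimic, fell (-0.36 ± 0.07, edgeR adjusted p = 0.000961) and SMARCD2 rose (0.24 ± 0.07, edgeR adjusted p = 0.0277). The calls of CHD3, YY1 and ACTL6A were kept whichever library was left out. Under miR-380-3p, SMARCD3 lost its call without mimic replicate 1, 3 or 4 or control replicate 4 (edgeR adjusted p from 0.0509 to 0.0761), SMARCD2 without mimic replicate 2 or 3 or control replicate 2 (0.055 to 0.0787) and CDK2AP1 without mimic replicate 4 or control replicate 2 or 5 (0.0531 to 0.0908). Under miR-100-3p, SMARCD2 lost it without mimic replicate 1 or 4 or control replicate 1, 2 or 5 (edgeR adjusted p from 0.0562 to 0.1).

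The genes whose pattern over the 28 libraries was most like that of SMARCA5 were GDI2 (Pearson r = 0.979 of log2 CPM), SLC39A6 (0.967), RBM22 (0.956), DDX42 (0.953) and SNX9 (0.952). None of the 5 holds a miR-99b-5p heptamer, and their log2 changes under that mimic ran from -1.24 (SNX9) to -0.385 (DDX42). For BAZ2A they were SUDS3 (0.968), HIP1 (0.966), MTOR (0.965), NMT1 (0.961) and ABCF2 (0.958), of which SUDS3, HIP1 and MTOR hold 1 heptamer each. These likenesses rest in large part on the 4 miR-99b-5p libraries. Over the other 24 libraries r was 0.519 to 0.838 for the first 5 and 0.377 to 0.748 for the second 5, and ranking by Spearman's rho shared 0 of 5 genes for either. The libraries share depth and GC differences, so the values are a description.

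Among the 10 genes themselves, SMARCA5 and BAZ2A had r = 0.935 over 28 libraries and 0.221 over the 24 without miR-99b-5p. RSF1 and BPTF had 0.933 and 0.92, BAZ1A and RSF1 0.901 and 0.902, and BAZ1A and BPTF 0.856 and 0.855. Those 3 partners thus moved together from library to library with or without miR-99b-5p, and all 3 also correlated with the GC slope, at -0.606 (BAZ1A), -0.63 (RSF1) and -0.611 (BPTF). SMARCA5 and SMARCA1 had r = -0.422 over 28 libraries and 0.51 over 24. SMARCA5 and BAZ2B had -0.0741 and 0.852.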

How the data were processed

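RNA was sequenced from 28 libraries, with Illumina's TruSeq stranded mRNA kit per the labels' protocols. Per the submitters' processing notes reads were aligned to hg19 with STAR, and the counting tool, annotation and versions are not given in the sources used here. The authors' deposited values are expected counts, 10.2% of them not whole. Strand use in counting is not stated. Expected counts were rounded, filtered (filterByExpr), scaled by TMM and fitted over all 28 libraries with edgeR 4.0.16 in R 4.3.3 (quasi-likelihood, 21 residual degrees of freedom, coefficient of variation 12.2%). All tests were two-sided. DESeq2 1.42.0, limma 3.58.1 (voom), other scalings, filters, references and covariates were alternatives, and the method was tested on simulated data. The members and gene lists were chosen with earlier results of these data known. Named genes are all members, the 2 called genes of smallest adjusted p per list and mimic, and the 5 genes of highest Pearson r with SMARCA5 and with BAZ2A (prior count 2). Others that are named (RBBP7, POLE3 under miR-99b-5p and miR-380-3p, CHD1) were chosen after their values were seen. The GC slope is the slope of a library's log2 deviation from the mean over all libraries on the GC content of 14863 of the 15058 tested genes. Sites were searched in 3′ UTRs of at least 50 bases on GRCh38, not the authors' hg19. For miR-1915-3p, the titles of 2 libraries (replicates 1 and 4) end in a suffix of unstated meaning.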

Additional observations from a re-analysis of the deposited data

Results flagged for a closer look

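In 7 of 70 groups of 4 libraries, 1 library lay far from the other 3 by Dixon's criterion, which chance meets in about 1 of 20 groups. In the control group these were SMARCA5 in replicate 4 (209 CPM, nearest library 235), BAZ2A in replicate 5 (262 CPM, nearest 227) and CHRAC1 in replicate 1 (33.7 CPM, nearest 29.4). BAZ1A stood apart in miR-99b-5p replicate 7 (220 CPM, nearest 202), miR-1915-3p replicate 2 (173 CPM, nearest 186) and miR-1283 replicate 4 (172 CPM, nearest 200). BAZ1B stood apart in miR-485-3p replicate 2 (390 CPM, nearest 466), the library with the highest GC slope.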

How the results depend on the processing

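Of 1080 log2 changes of members under the alternatives, 1038 kept their direction and side of the threshold or moved by less than their standard error, 20 became called, 18 lost their call and 4 reversed. The sign changed in 81, of which all but 4 moved by less than their standard error and were not called. The 4 were BAZ2A with the other 5 mimics for reference under miR-380-3p (0.16) and miR-1915-3p (0.121), where that reference holds the low miR-99b-5p libraries, CHRAC1 under miR-380-3p without its replicate 4 (-0.00437, up to 0.203 without other libraries) and BAZ2B under miR-485-3p without its replicate 5 (-0.0375, up to 0.303). Members called numbered 2 under miR-380-3p and 5 under miR-485-3p and 4 under miR-100-3p with the other 5 mimics for reference, 2 under miR-380-3p and 0 under miR-485-3p with only the 8 libraries, 0 under miR-485-3p with no filter, 3 under miR-485-3p and 1 under miR-100-3p with the GC slope, and 2 under miR-485-3p without the libraries of GC slope beyond 2, an alternative chosen after seeing the data. Of all genes, those settings called, in the same order, 20.9%, 34.3%, 17.1%, 10.9%, 14.2%, 7.91%, 32.4%, 11.7% and 21.6%. The calls with the other 5 mimics for reference include SMARCA5 higher under miR-380-3p (0.296), miR-485-3p (0.307) and miR-100-3p (0.371). They also include BAZ2A higher under miR-100-3p (0.334). That reference holds the miR-99b-5p libraries, in which both genes were low. Leaving out 1 library gave 2 to 4 members under miR-99b-5p, 0 to 2 under miR-485-3p and 0 under the others. Calls over the 15 pairs of mimics were 44 with the GC slope against 29, and 26 to 33 without 1 library, also chosen after seeing the data, and gene and mimic pairs with a site were 26 with 6-base and 4 with 8-base matches against 13. The cause was not tested.

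Genes of the other 7 lists called numbered 26 under miR-485-3p, 17 under miR-99b-5p, 10 under miR-380-3p, 5 under miR-100-3p and 0 under the other 2. With no filter the first 4 became 15, 10, 2 and 3. With the other 5 mimics for reference they became 43, 29, 16 and 12, with 9 under miR-1915-3p and 3 under miR-1283. With the GC slope they were 18 under miR-380-3p, 13 under miR-100-3p and 2 under miR-1915-3p, with DESeq2 8 under miR-100-3p and 1 under miR-1915-3p, and with only the 8 libraries 16 under miR-485-3p and 3 under miR-100-3p. Leaving out 1 library gave 16 to 28, 8 to 16, 3 to 8 and 3 to 7 for those 4 and 0 for the rest. Of 39 named calls of listed genes, 20 held in all 20 alternatives each and 19 were lost in at least 1. Of all genes called under miR-1915-3p and miR-1283, 94.6% and 100% were lower with edgeR and 84% and 80% with DESeq2.

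Whether libraries of the same replicate number share a batch is not in the labels and was not tested. Deviations of libraries with the same number had a median correlation of 0.0533 over 67 pairs, of which 27 were over 0.1. Over 269 pairs of different number the median was -0.00885, and 60 were over 0.1. A replicate block called 11.6% of all genes under miR-380-3p, against 10.9% without it. With a replicate block 2 members were called under miR-380-3p, RSF1 (0.375, edgeR adjusted p = 0.016) and BPTF (0.299, edgeR adjusted p = 0.0385), the pairs of mimics held 40 calls, and the numbers of members under the other 5 mimics did not move. Of the named calls of listed genes, CHD1 under miR-99b-5p, SMARCD2 and POLE3 under miR-380-3p, and SMARCD2 and CTCF under miR-100-3p were not called with the block (edgeR adjusted p from 0.0513 to 0.0941). CECR2, at 0 to 8 counts in a library, was too low to test. BAZ2B had the fewest counts of the tested members, at 132 to 402 in a library.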
